A study of Homo sapiens with 72 samples.

Results

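The 45 genes described here are NF-κB target genes, cytokines and chemokines, chosen by name from a fixed list. They were followed through 11 DESeq2 tables on G3BP1, a protein that binds RNA, which list 61541 gene IDs each. A gene entered a comparison where its base mean (the mean of normalised reads over all libraries of a table) was at least 10, and 40 of the 45 did so in 1 table or more. By role they were 10 REL proteins and IκB proteins, 11 brakes and signalling adaptors, 6 chemokines, 9 cytokines, 5 surface proteins and 4 other effectors.

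These tables rest on 24 of the series' 72 libraries. In RIP-seq (sequencing of RNA pulled down with a protein), FlpIn 293 Trex cells, a human embryonic kidney line, stably carried FLAG-tagged G3BP1 switched on with 1 ug/mL tetracycline for 24 hours. Pulled-down RNA (3 libraries) was compared with input RNA (3 libraries), and no control pull-down was analysed here. In the first U2OS experiment, on a human osteosarcoma line, untreated wild-type cells, untreated G3BP1/2 knockout cells and knockout cells transfected by Lipofectamine with a G3BP1 transgene 24 hours earlier had 2 libraries each. In the second U2OS experiment, G3BP1/2 knockout cells were left alone, or transfected in the same way with wild-type G3BP1 or with G3BP1 lacking its NTF2 domain, and each of these was sequenced with and without 200 uM sodium arsenite for 2 hours (2 libraries per group). Every group of the second experiment thus carried the knockout, and it had no wild-type cells. Transfection was transient and no mock-transfected group was analysed here, so transfection and G3BP1 cannot be told apart between rescued and knockout cells. The labels do not say how many knockout clones were used. The 2 libraries of a group are called a (the deeper) and b, because the tables carry no replicate numbers. Nothing in the labels says that they came from separate cultures, so p-values measure only the spread between these libraries.

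NF-κB is a family of dimeric transcription factors built from RELA, RELB, REL, NFKB1 and NFKB2. IκB proteins such as NFKBIA hold the dimers in the cytoplasm until receptor signals remove them, after which the dimers switch on inflammatory genes together with their own inhibitors. A slower, non-canonical route processes NFKB2 to pair with RELB, and it is held in check by TRAF3, which works with TRAF2 and the ubiquitin ligases BIRC2 and BIRC3 to keep the kinase MAP3K14 low. G3BP1 assembles stress granules, cytoplasmic RNA and protein bodies that form when arsenite stops translation, and its NTF2-like domain carries dimerisation and partner binding.

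Promoter windows show the DNA on which these factors act, and 5 are printed for members whose values the results turn on. They are RefSeq sequences of GRCh38.p14 from 250 bases before to 50 bases after the start of transcription, 300 bases each, read 5′ to 3′ on the gene's strand. Capitals mark matches to the classical 10-base κB consensus on either strand, and matches may overlap. The consensus used was 3 G, a purine, 2 of any base, 2 pyrimidines and 2 C, with no mismatch allowed. ICAM1 (adhesion receptor for leukocytes, chr19:10270870-10271169, plus strand) is shown for the largest rise in knockout cells, and its window holds no full match. A stretch of it, tggaaattcc, differs from the consensus only at its first base, so the missing match does not show that the window lacks a κB site. BIRC3 (chr11:102317234-102317533, plus strand) holds 2 matches, whose first bases lie at -199 and -135 from the start. IL32 (chr16:3065153-3065452, plus strand, 1 of its 2 windows) holds 2 overlapping matches at -99 and -98. NFKBIA (chr14:35404700-35404999, minus strand) holds 1 at -81, and CCL20 (chr2:227813592-227813891, plus strand) holds 1 at -79.
ICAM1: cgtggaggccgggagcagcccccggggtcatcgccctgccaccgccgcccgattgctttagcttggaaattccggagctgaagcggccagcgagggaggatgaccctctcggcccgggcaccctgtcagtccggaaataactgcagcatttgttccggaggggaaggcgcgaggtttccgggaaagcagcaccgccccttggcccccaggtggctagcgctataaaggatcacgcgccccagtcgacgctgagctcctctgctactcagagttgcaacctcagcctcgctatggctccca
BIRC3: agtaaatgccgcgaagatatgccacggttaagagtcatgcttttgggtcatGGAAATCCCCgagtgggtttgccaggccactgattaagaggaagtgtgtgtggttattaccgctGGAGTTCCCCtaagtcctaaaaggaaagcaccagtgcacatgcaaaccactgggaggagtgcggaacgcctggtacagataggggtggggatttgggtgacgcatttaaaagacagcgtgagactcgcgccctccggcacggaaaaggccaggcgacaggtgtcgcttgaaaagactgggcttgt
IL32: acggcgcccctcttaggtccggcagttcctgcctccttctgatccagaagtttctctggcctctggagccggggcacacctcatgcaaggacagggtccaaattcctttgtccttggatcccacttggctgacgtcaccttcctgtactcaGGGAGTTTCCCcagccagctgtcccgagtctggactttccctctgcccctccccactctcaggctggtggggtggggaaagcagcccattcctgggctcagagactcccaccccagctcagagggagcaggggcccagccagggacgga
NFKBIA: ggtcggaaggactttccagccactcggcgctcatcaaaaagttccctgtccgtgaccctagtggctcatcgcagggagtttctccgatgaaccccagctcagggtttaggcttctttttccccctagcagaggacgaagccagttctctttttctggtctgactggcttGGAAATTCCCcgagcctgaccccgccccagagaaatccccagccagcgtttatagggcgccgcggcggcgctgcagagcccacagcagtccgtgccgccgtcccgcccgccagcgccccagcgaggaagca
CCL20: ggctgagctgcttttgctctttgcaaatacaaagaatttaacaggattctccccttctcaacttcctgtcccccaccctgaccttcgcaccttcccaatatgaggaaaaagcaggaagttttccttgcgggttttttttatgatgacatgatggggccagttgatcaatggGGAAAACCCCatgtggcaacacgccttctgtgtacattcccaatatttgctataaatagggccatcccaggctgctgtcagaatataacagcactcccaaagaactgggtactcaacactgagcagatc

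Of the 45 members, 39 had a window, and 22 of these (56.4%) held a match in a window, beside 3619 of 27305 genes (13.3%) in the whole RefSeq table. Counted by single windows, 26 of 60 member windows (43.3%) held a match, beside 3956 of 35116 windows (11.3%) in the whole RefSeq table. The list was chosen for NF-κB targets, so the members' higher share is not an independent result. Among the members that rose in G3BP1/2 knockout cells (below), 14 of the 20 with a window held a match, beside 3 of 6 that fell and 2 of 6 not called. A match is a description of the letters, not a measured binding site.

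Depth was 44.22 to 46.95 M normalised gene reads per library in the first U2OS experiment, 11.99 to 17.89 M in the second and 12.17 M in RIP-seq. G3BP1 mRNA was still read in the knockout libraries, with a log2 fold change against wild type of -0.56 (SE 0.05) in the authors' deposited table. G3BP2 stood at 6532 and 6318 normalised reads in knockout and 8532 and 8022 in wild-type libraries (-0.36, SE 0.06 in the authors' deposited table). The labels state a knockout of both genes, and mRNA levels alone do not show whether the proteins were lost. In the second experiment G3BP1 stood at 3295 and 3348 normalised reads in knockout cells, 544266 and 517415 after wild-type rescue and 738742 and 701932 after NTF2-deletion rescue. In the first experiment G3BP1 differed by -0.69 (SE 0.04) between knockout and rescue in the authors' deposited table. The U2OS cells carried high levels of the mesenchymal marker SPARC (base mean 8273 in its lowest table), while PTPRC stayed at or below 35.81 and CD3E at or below 0.161 in base mean. Other markers of the same lists went the other way. The mesenchymal marker COL1A2 had base means of only 5.61 to 26.8, the leukocyte marker ITGAM 175 to 978 and the epithelial marker EPCAM 73.6 to 453. Bulk RNA does not tell fewer cells of a kind from less RNA per cell.

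Several cytokine and chemokine genes best known as NF-κB outputs had few or no reads in U2OS cells. CXCL1 and CXCL2, which attract neutrophils, had 0 reads in all 18 U2OS libraries, and IL1B had 1 read in 1 arsenite-treated knockout library. A count of 0 allows up to 3 reads per library, and this covers counting error only. IL6, the fever and acute-phase cytokine, had 2 to 12 reads per library in the first experiment and its base mean stayed between 4.01 and 8.73 over the U2OS tables. TNF had 0 to 4 reads per library there, and IL1A, another interleukin 1 gene, 0 to 5. In the second experiment IL1A had 0 reads in both knockout libraries and 11 and 12 after wild-type rescue, with a base mean under the limit. CXCL8 had 0 to 8 reads and IL6 1 to 19 in the 12 libraries of that experiment, the knockout libraries having 2 and 0 of CXCL8 and 4 and 4 of IL6. The members just inside and just outside the limit in knockout against wild type were CXCL3 (base mean 16.13) and IL6 (5.67).

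In knockout cells most of the tested REL and IκB genes, brakes and adaptors, and surface proteins were above wild type, and the chemokines CXCL8 and CCL20 were below it. Of 38 members tested, 23 were called higher and 8 lower (adjusted p under 0.05) in the authors' deposited table, where 22.2% of all genes were called higher and 23.7% lower. The median log2 fold change was 0.63 over the members and 0.0076 over all genes tested. REL and IκB genes rose in 8 of 10 cases and fell in 1, and brakes and adaptors rose in 8 of 11 with none falling. Surface proteins rose in 4 of 5, cytokines split 2 to 2 among 4, and 2 of 4 chemokines fell while CXCL3 (-0.81) and CCL2 (0.18) were not called in the authors' deposited table. CXCL8 averaged 0.57 normalised reads in knockout and 32.1 in wild-type libraries, and CCL20 9.83 and 47.6. Both reached the base mean limit only through wild type, and VCAM1 (81.1 and 2.02) only through knockout. Their calls are therefore not independent support. The plot of log2 fold changes by role shows the order of the genes.

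**Figure D1:**
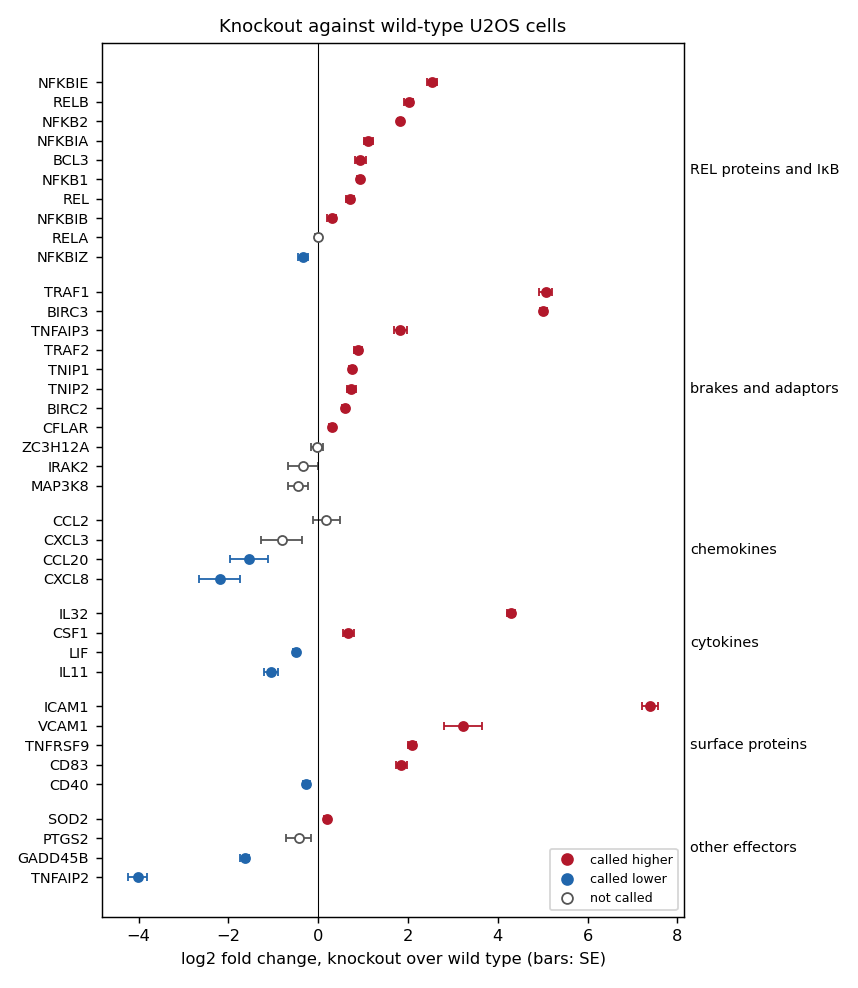
Log2 fold changes of the 38 tested members in G3BP1/2 knockout over wild-type U2OS cells (x axis), grouped by role (y axis). Points are the values of the authors' deposited table, bars are its standard errors, filled points passed an adjusted p of 0.05, and ICAM1 (7.39) and TNFAIP2 (-4.02) mark the ends.

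The surface adhesion gene ICAM1 changed most. It had 31.1 and 30.8 normalised reads in wild-type libraries and 6594 and 6317 in knockout libraries, from 31 and 30 reads against 7578 and 5496. The authors' deposited table gives a log2 fold change of 7.39 (SE 0.17). VCAM1, the adhesion partner of lymphocyte integrins, had 1 and 3 reads in wild-type libraries and 103 and 65 in knockout libraries. TNFRSF9, a costimulatory receptor of the TNF receptor family, stood at 770 and 685 normalised reads in wild-type and 3167 and 3142 in knockout cells. Its log2 fold change was 2.10 (SE 0.09) in the authors' deposited table. CD83, a glycoprotein of mature dendritic cells, rose by 1.85 (SE 0.12) on the log2 scale in the authors' deposited table. CD40, a receptor that drives both NF-κB routes, was the surface gene that fell, at -0.27 (SE 0.08) in the authors' deposited table. For ICAM1, TNFRSF9, CD83 and VCAM1 every knockout library was above every wild-type library. Libraries separated in most of the 38 members, 24 higher and 12 lower in knockout, so separation does not set these genes apart. Here and below, separation has no share of all genes beside it.

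Of the 11 brakes and adaptors 8 rose. TRAF1, an adaptor at TNF receptors, had 76.3 and 65.7 normalised reads in wild-type and 2518 and 2736 in knockout libraries, with a log2 fold change of 5.07 (SE 0.15) in the authors' deposited table. BIRC3, the ubiquitin ligase cIAP2, went from 248 and 278 to 8530 and 9087 normalised reads. Its log2 fold change was 5.02 (SE 0.09) in the authors' deposited table. TNFAIP3, the ubiquitin-editing brake A20, had 248 and 274 normalised reads in wild-type and 1041 and 872 in knockout cells. For TNFAIP3 the log2 fold change was 1.83 (SE 0.15) in the authors' deposited table, with an adjusted p of 4.4e-34. TRAF2 (0.89), TNIP1 (0.76), TNIP2 (0.74), BIRC2 (0.60) and CFLAR (0.30) rose by less in the authors' deposited table. ZC3H12A, an RNase that destroys cytokine mRNAs (-0.03, SE 0.14), IRAK2 (-0.34, SE 0.34) and the kinase MAP3K8 (-0.44, SE 0.22) were not called in the authors' deposited table.

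Among the DNA-binding factors the non-canonical pair moved most. NFKB2 stood at 3950.9 and 4027 normalised reads in wild-type and 14081 and 14314 in knockout cells, and RELB at 539 and 547 against 2231 and 2222. The log2 fold changes of NFKB2 (1.83, SE 0.05) and RELB (2.01, SE 0.10) stand in the authors' deposited table beside NFKB1 (0.93), BCL3 (0.94) and REL (0.70). RELA, the main activating subunit, had 4169 and 4032 normalised reads in wild-type and 3994 and 4221 in knockout libraries, which overlapped. Its log2 fold change was 0.00 (SE 0.06) in the authors' deposited table, with an adjusted p of 0.99. Of the inhibitors, NFKBIE rose from 311 and 278 to 1742 and 1780 normalised reads (2.54, SE 0.12 in the authors' deposited table). NFKBIA, the prompt inhibitor IκBα, rose from 731 and 677 to 1565 and 1517 (1.12, SE 0.10 in the authors' deposited table). NFKBIZ, a nuclear IκB protein, was the regulator that fell, at -0.33 (SE 0.10) in the authors' deposited table.

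The secreted and effector genes went both ways. IL32, a proinflammatory cytokine, had 247 and 266 normalised reads in wild-type and 5230 and 5120 in knockout cells, a log2 fold change of 4.29 (SE 0.09) in the authors' deposited table. IL11, a cytokine of the IL6 family, had 688 and 583 against 297 and 306 and fell by 1.05 (SE 0.16) on the log2 scale in the authors' deposited table. CXCL8, the neutrophil chemokine interleukin 8, had 30 and 34 reads in wild-type and 0 and 1 in knockout libraries. CCL20, which draws CCR6-bearing cells, had 44 and 51 reads against 11 and 9. TNFAIP2, a TNF-induced regulator of membrane protrusions, stood at 759 and 807 normalised reads in wild-type and 34.8 and 48.3 in knockout cells. The authors' deposited table gives TNFAIP2 a log2 fold change of -4.02 (SE 0.21) and GADD45B, a stress-induced survival factor, -1.64 (SE 0.10). GADD45B had 1947 and 2024 normalised reads in wild-type and 606 and 657 in knockout cells.

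Other genes of the pathway lay nearer to the shares of all genes, of which 22.2% were higher and 23.7% lower in knockout cells. Of 28 upstream signalling genes, 8 rose (28.6%) and 7 fell (25%) in knockout cells in the authors' deposited table. TRAF3, the brake on the non-canonical route, had the lowest fold change of the upstream list. It had 1659 and 1613 normalised reads in wild-type cells, 26.1 and 33.3 in knockout cells and 906 and 940.5 in rescued cells. Its log2 fold change was -5.51 (SE 0.20) for knockout over wild type and -4.45 (SE 0.19) for knockout over rescue in the authors' deposited table. MALT1, a signalling protease, fell by 1.62, and IKBKE, an IκB kinase relative, rose by 1.52 in the authors' deposited table. Of 12 receptor genes tested, 5 rose (41.7%) and 4 fell (33.3%), with TLR3 at 2.11 and IL1RAP at -1.21 in the authors' deposited table. Markers of other cells moved too. The 6 leukocyte markers summed to 83.3 and 79.1 normalised reads in wild-type and 1417 and 1514 in knockout libraries, nearly all of it ITGAM. Without ITGAM the sums were 62.2 and 58.5 against 12.2 and 18.4, and 2 of the 3 markers tested were called, ITGAM higher and PTPRC lower. Of 6 mesenchymal and bone markers 5 were lower in knockout cells and none was higher, with COL1A1 at -2.73 in the authors' deposited table. The part of TRAF3 and of these markers in the members' differences was not tested.

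Rescued cells of the first experiment still held ICAM1, BIRC3, TRAF1 and IL32 far above wild type. ICAM1 stood at 4604 and 4235 normalised reads in rescued libraries, between wild type and knockout, and BIRC3 at 7462 and 6694. TRAF1 stood at 2154 and 1642 and IL32 at 3538 and 3114 normalised reads after rescue. In knockout over rescue, 13 of 37 members were called higher and 8 lower in the authors' deposited table, where 17.8% of all genes were higher and 23.7% lower. The median of the members was 0.02, beside 0.0020 for all genes tested. Surface genes were higher in knockout in 4 of 5 cases, VCAM1 by 1.31, TNFRSF9 by 0.84, CD83 by 0.67 and ICAM1 by 0.54 in the authors' deposited table. VCAM1 had 29 and 15 reads in rescued and 103 and 65 in knockout libraries. TNFAIP2 showed the lowest value, -2.47 (SE 0.23) in the authors' deposited table, with 290 and 326 normalised reads after rescue, below wild type and above knockout. GADD45B, at 1123 and 1252 normalised reads, also lay between the other groups (-0.89, SE 0.11 in the authors' deposited table). CXCL8 had 7 and 13 reads in rescued libraries. Of 6 mesenchymal and bone markers 2 were higher and 3 lower in knockout than in rescued cells, while ITGAM was higher (1.64) and PTPRC lower (-1.21) in the authors' deposited table, and the part of these markers was not tested.

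**Figure D2:**
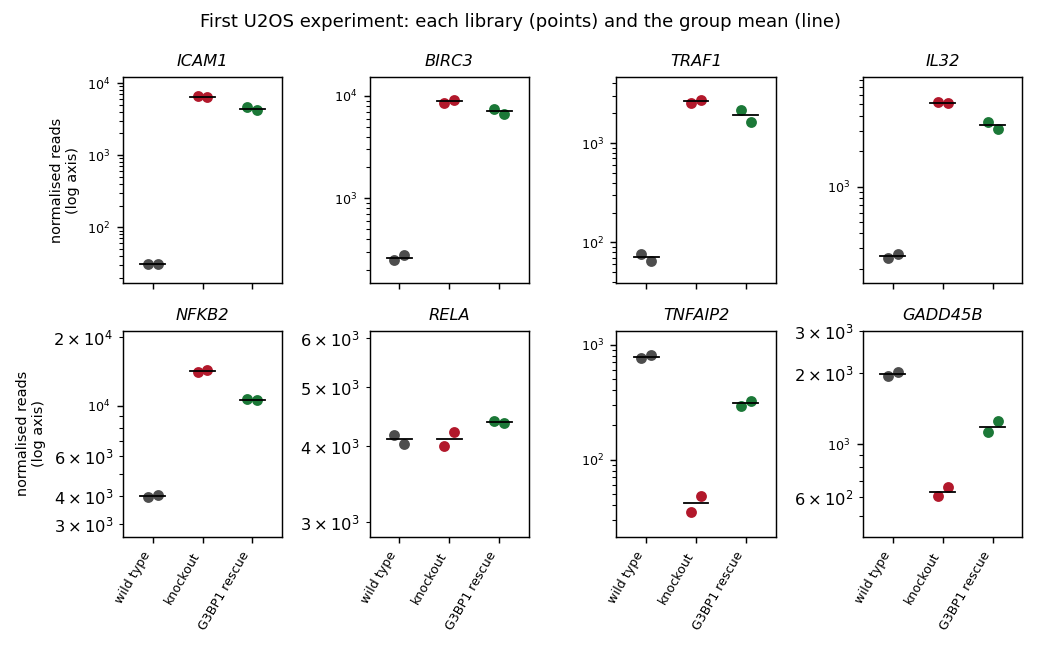
Normalised reads (log y axes with different ranges) of 8 members in the libraries of the first U2OS experiment, with points for libraries and lines for group means. ICAM1, BIRC3, TRAF1, IL32 and NFKB2 are low in wild type and high in the other groups, RELA lies within 3994 to 4388 throughout, and TNFAIP2 and GADD45B are lowest in knockout.

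Rescued cells were also compared with wild-type cells directly, on libraries shared with the comparisons above. Of 38 members, 7 were higher and 21 lower in wild type in the authors' deposited table, against 16.8% and 22.5% of all genes, with a median of -0.61 beside -0.0021 for all genes tested. ICAM1 (-6.52, SE 0.16), BIRC3 (-4.64), TRAF1 (-4.37), IL32 (-3.59), NFKBIE (-2.28) and TNFAIP3 (-1.92) were the lowest in the authors' deposited table. NFKBIA, at 1540 and 1493 normalised reads, and TNFAIP3, at 1034 and 1059, overlapped in rescued cells with the knockout libraries. For knockout over rescue the authors' deposited table puts NFKBIA at 0.02 (SE 0.08), TNFAIP3 at -0.12 (SE 0.11) and RELA at -0.09 (SE 0.06), none of them called. TNFAIP2 (1.26), CXCL8 (0.72) and GADD45B (0.71) were higher in wild type than in rescued cells in the authors' deposited table. CXCL8 averaged 33.1 normalised reads in wild-type and 9.59 in rescued libraries, so it entered only through wild type. Mesenchymal and bone markers were higher in wild type in 4 of 6 cases with none lower, COL1A1 by 1.06 in the authors' deposited table. The epithelial marker EPCAM (0.48) was higher and ITGAM (-3.61) lower in wild type in the authors' deposited table. The part of these markers was not tested.

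In the second experiment many members stood higher after rescue than in the untransfected knockout cells, where transfection and G3BP1 cannot be told apart. With wild-type G3BP1, 23 of 37 members were higher and 6 lower than in knockout cells in the authors' deposited table, where 28.8% of all genes were higher and 23.0% lower. The median was 0.49 for the members and 0.03 for all genes tested. All 5 cytokines tested rose, brakes and adaptors rose in 8 of 11 and fell in 2, and REL and IκB genes rose in 6 of 10 and fell in 1. The cytokine count includes CSF2 and the brake count IRAK2, which entered only through the rescued libraries (below). This table's well-expressed genes (base mean of at least 100) had a median of 0.18, and centred on it the members split 16 higher and 7 lower. The shares of all genes above were not centred, so the centred split has no share of all genes beside it. CCL20 had 5 and 1 reads in knockout libraries and 64 and 33 after wild-type rescue. Its fold change was the highest, 2.76 (SE 0.54) in the authors' deposited table. CSF2, a myeloid growth factor, had 4 and 0 reads in knockout libraries and 35 and 29 after rescue. CCL20, CSF2 and IRAK2 averaged 2.88, 1.88 and 9.30 normalised reads in knockout libraries. They reached the base mean limit only through the rescued libraries, so their calls are not independent support. VCAM1 (below) averaged 1.90 after rescue and reached it only through the knockout libraries.

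TRAF1 went from 365 and 382 normalised reads in knockout to 1336 and 1321 after wild-type rescue, a log2 fold change of 1.82 (SE 0.11) in the authors' deposited table. IL11 went from 83.7 and 86.1 to 253 and 287 (1.61, SE 0.23 in the authors' deposited table). TNFAIP3 stood at 263 and 240 in knockout and 634 and 622 after rescue (1.30, SE 0.15 in the authors' deposited table). All rescued libraries of these 3 genes lay above all knockout libraries, as in 27 of the 37 members, while 8 members separated the other way. NFKBIB, an IκB protein, rose by 1.40, NFKB1 by 1.09 and BIRC2 by 1.04 on the log2 scale in the authors' deposited table. NFKBIB had 291.5 and 356 normalised reads in knockout and 839 and 889.5 after rescue, NFKB1 819 and 810.3 against 1751 and 1728, and BIRC2 794 and 771 against 1651 and 1579. ICAM1 rose from 1646 and 1577 to 2560 and 2570 normalised reads (0.67, SE 0.07 in the authors' deposited table). NFKBIA had 388 and 349 in knockout and 556 and 487 after rescue (0.49, SE 0.15), and RELA 938.5 and 984 against 1425 and 1468 (0.59, SE 0.09), per the authors' deposited table. BCL3, a nuclear IκB protein that partners NFKB1 and NFKB2 dimers, fell from 171 and 163 normalised reads to 43.8 and 39.2 (-1.89, SE 0.29 in the authors' deposited table). VCAM1 (-1.78), CCL2 (-1.49), MAP3K8 (-1.32), TNFRSF9 (-0.75) and CFLAR (-0.52) also fell in the authors' deposited table. The 28 upstream genes gave 11 higher (39.3%) and 2 lower (7.14%), beside 28.8% and 23.0% of all genes. TRAF3 had 12.7 to 20.9 normalised reads in wild-type rescue and 17.9 and 18.1 in knockout libraries. Of 5 mesenchymal and bone markers tested, 4 were lower and 1 higher after rescue, COL5A1 the lowest at -2.35 in the authors' deposited table. The 6 leukocyte markers summed to 304 and 369 normalised reads in knockout and 168 and 168.5 after wild-type rescue, and to 6.58 to 12.7 without ITGAM. The part of these markers was not tested.

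The differences between rescued and knockout cells were not the same in the U2OS experiments. Subtracting the first experiment's rescue-over-knockout value from the second's, a comparison chosen after its values were seen, gave 22 of 36 members higher and 5 lower, where 20.3% of all genes were higher and 17.0% lower. The tables share no library, and the median difference was 0.67 for the members and 0.03 for all genes tested. TRAF1 differed by 2.25 (SE 0.22), CCL20 by 1.72 (SE 0.63), NFKB1 by 1.29 (SE 0.11), NFKBIE by 1.23 (SE 0.16), ICAM1 by 1.21 (SE 0.09) and TNFAIP3 by 1.17 (SE 0.18). CCL20 passed the base mean limit in the second experiment only through its rescued libraries. TNFAIP2 differed the other way, by -3.23 (SE 0.61), with CCL2 at -1.94, MAP3K8 at -1.65 and BCL3 at -1.24. In the second experiment TNFAIP2 had 23.5 and 22.3 normalised reads in knockout and 18.1 and 2.94 after wild-type rescue. TRAF3 reads set the experiments apart as well, since rescued cells had 906 and 940.5 normalised reads in the first and none of the 12 libraries of the second exceeded 36.4. Depth and the level of G3BP1 mRNA after rescue also differed between the experiments, and their part in this difference was not tested.

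**Figure D3:**
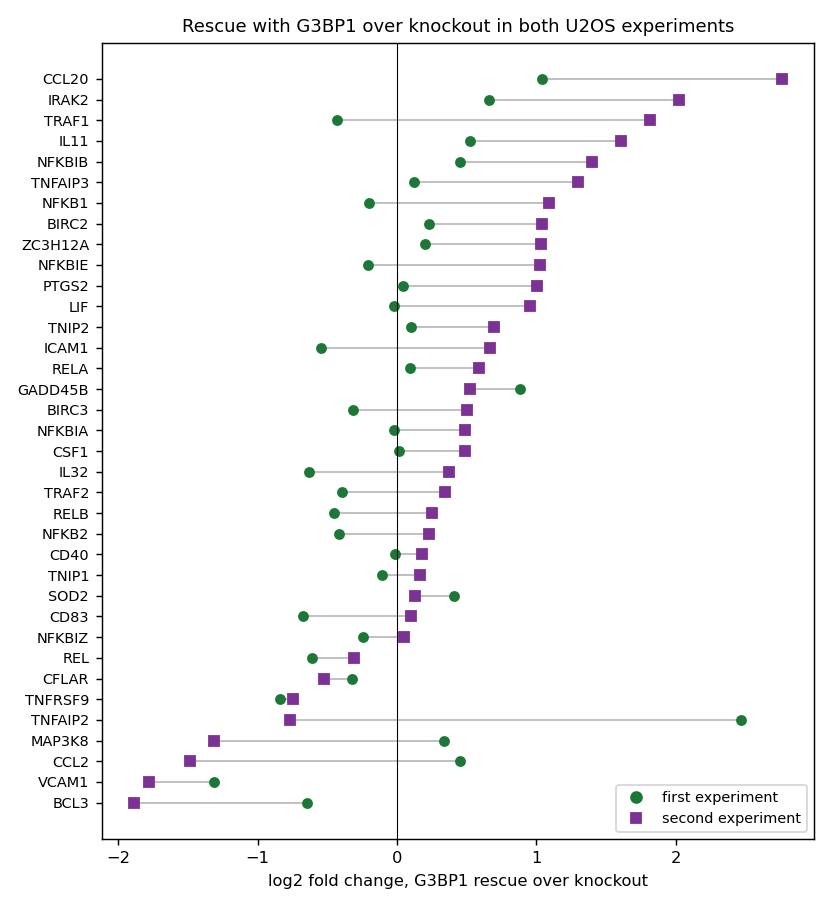
Log2 fold changes of 36 members for G3BP1 rescue over knockout (x axis), in the first experiment (circles, the sign of the authors' deposited table turned) and the second (squares). TRAF1 lies below 0 in the first and at 1.82 in the second, while TNFAIP2 lies far to the right in the first only.

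After rescue with G3BP1 lacking its NTF2 domain, 8 of 11 brakes and adaptors, 7 of 10 REL and IκB genes and 4 of 5 cytokines stood above the untransfected knockout. Between the rescues 0 of 37 members differed past the test. Against knockout, 21 of 37 members were higher and 6 lower after NTF2-deletion rescue in the authors' deposited table, beside 28.5% and 22.8% of all genes. The median was 0.32 for the members and 0.03 for all genes tested, and after centring on the table's 0.17 the split was 15 and 7. The shares of all genes above were not centred. CCL20 (2.68), CSF2 (2.19), IRAK2 (1.83), TRAF1 (1.49), NFKBIB (1.44) and IL11 (1.43) led, and BCL3 (-1.65) and MAP3K8 (-1.60) were lowest in the authors' deposited table. TRAF1 had 1114 and 1000.2 normalised reads, IL11 242.5 and 234, NFKBIB 899 and 877, TNFAIP3 527 and 452, ICAM1 2561 and 2392, NFKBIA 479 and 494.5 and RELA 1424 and 1280. BCL3 had 48.1 and 51.3. The difference of the rescues called 0 of 37 members either way, where 0.0% of all genes were higher and 0.0185% lower for the wild-type protein. At an unadjusted p under 0.05 there were 2 members, BIRC3 (0.38, SE 0.12) and TRAF1 (0.33, SE 0.17). BIRC3 had 2117 and 2186 normalised reads after wild-type and 1577 and 1726 after NTF2-deletion rescue. After NTF2-deletion rescue 4 of 5 mesenchymal and bone markers were lower than in knockout and VIM was higher (0.43), with COL5A1 at -2.09 and ITGAM at -0.996 in the authors' deposited table, and their part was not tested. The wild-type and NTF2-deletion tables share the knockout libraries, so the standard error of this difference is too large, and a p that misses the threshold does not show that the proteins act alike.

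In knockout cells 2 hours of arsenite raised PTGS2, NFKBIZ, ZC3H12A and GADD45B most, and it lowered 4 of the 5 surface genes. Of 35 members tested, 13 were higher and 4 lower in the authors' deposited table, where 8.56% of all genes were higher and 10.9% lower, and the medians were 0.11 for the members and -0.0018 for all genes tested. REL and IκB genes rose in 6 of 10 and brakes and adaptors in 4 of 11, with none falling in either, and no surface gene rose. PTGS2, the inducible cyclooxygenase, went from 32.9 and 33.0 normalised reads to 165.5 and 183, a log2 fold change of 1.93 (SE 0.25) in the authors' deposited table. NFKBIZ went from 272 and 253 to 988.5 and 977 (1.82, SE 0.13 in the authors' deposited table). ZC3H12A went from 167 and 148 to 622 and 511 (1.71, SE 0.16), and GADD45B from 198 and 218 to 565 and 589 (1.39, SE 0.15), in the authors' deposited table. In all 4 genes the arsenite libraries lay above the untreated ones, as in 19 of the 35 members, while 10 members separated the other way. TNFAIP3 (0.78), TRAF1 (0.72), IL32 (0.70), RELB (0.63) and NFKBIB (0.57) rose by less in the authors' deposited table. CD40 (-0.72), CD83 (-0.65), TNFRSF9 (-0.57) and ICAM1 (-0.44) were the surface genes that fell in the authors' deposited table, ICAM1 from 1646 and 1577 to 1181 and 1177 normalised reads. NFKBIA (388 and 349 against 458 and 468, 0.31, SE 0.14) and RELA (938.5 and 984 against 1007 and 992, 0.06, SE 0.10) were not called in the authors' deposited table. Upstream, 7 of 27 genes rose and none fell, with MAP3K14 at 0.92, and 5 of 11 receptor genes fell while TLR4 rose by 2.00 in the authors' deposited table. Of 5 mesenchymal and bone markers tested 3 fell and none rose, SPARC by 0.90 in the authors' deposited table, EPCAM stood at -0.80 there, and their part in the members' changes was not tested.

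Fewer members passed the test under arsenite in rescued cells than in knockout cells. With the NTF2-deleted protein a smaller share of all genes passed as well, beside 8.56% higher and 10.9% lower in knockout cells. With the wild-type protein 8 of 33 members were higher and 3 lower in the authors' deposited table, beside 8.18% and 12.2% of all genes. GADD45B (0.69), NFKBIZ (0.54), NFKBIB (0.36) and TRAF2 (0.34) rose, and CD40 (-0.50), CSF1 (-0.35) and ICAM1 (-0.28) fell, in the authors' deposited table. With the NTF2-deleted protein 3 of 29 members were higher and 2 lower in the authors' deposited table, beside 2.43% and 6.14% of all genes. These were GADD45B (0.56), NFKBIZ (0.55) and NFKB1 (0.20), with CD40 (-0.31) and ICAM1 (-0.23) lower, in the authors' deposited table. PTGS2 stood at 64.7 and 79.3 normalised reads after wild-type rescue and 72.1 and 72.5 with arsenite added, above untreated and below arsenite-treated knockout cells in both states. NFKBIZ went from 268 and 277 to 423 and 435.5 normalised reads with the wild-type protein, and from 234 and 219 to 426 and 348.5 with the NTF2-deleted protein. ZC3H12A went from 306 and 353 to 398 and 341, which overlapped, and from 250 and 218 to 279 and 282. TNFAIP3 had 634 and 622 without and 708 and 766 with arsenite after wild-type rescue (0.16, SE 0.08, not called in the authors' deposited table), and 527 and 452 against 549.8 and 550.4 after NTF2-deletion rescue. The levels of NFKBIA (531 and 523, 469 and 489) and RELA (1484 and 1373, 1445 and 1337) with arsenite were not called against the untreated rescues. Of 5 mesenchymal and bone markers 2 fell with each protein and none rose, and EPCAM fell by 0.63 with the wild-type protein in the authors' deposited table, and their part was not tested.

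**Figure D4:**
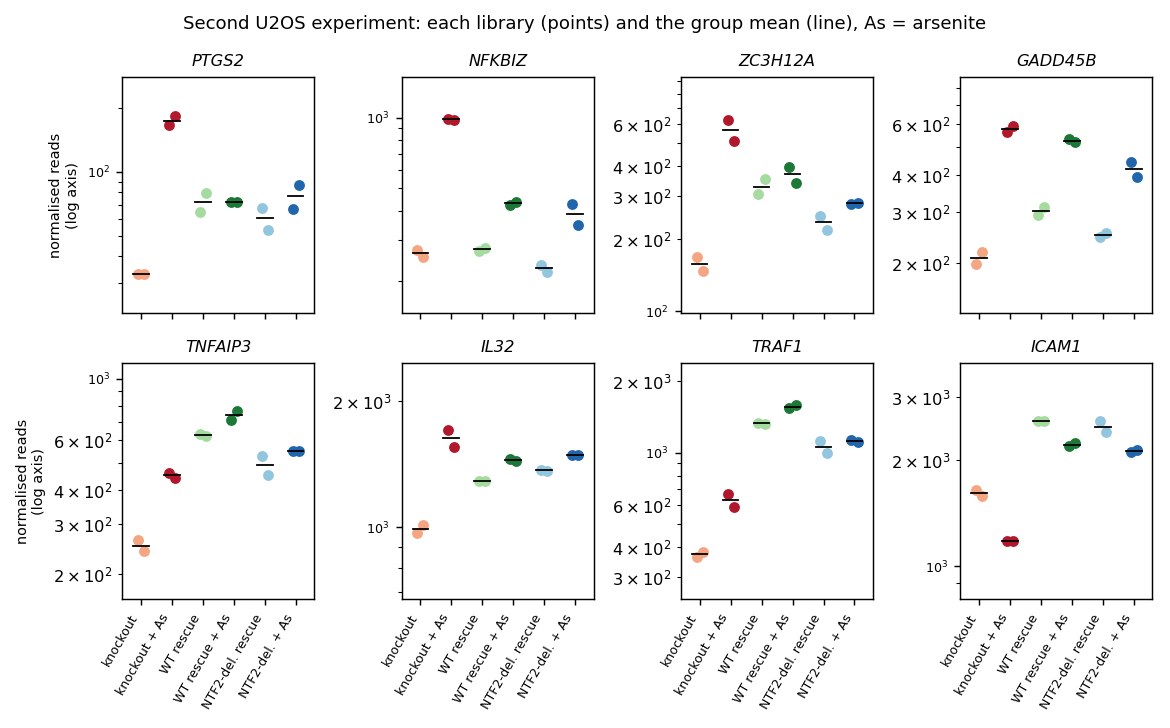
Normalised reads (log y axes with different ranges) of 8 members in the 12 libraries of the second U2OS experiment, with points for libraries and lines for group means (As, arsenite). PTGS2, NFKBIZ and ZC3H12A are highest in arsenite-treated knockout cells, and ICAM1 is lower with arsenite in all 3 backgrounds.

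The arsenite response itself differed between knockout and rescued cells for a few members. Subtracting the knockout response from the wild-type rescue response called 0 of 34 members higher and 7 lower, against 1.82% and 2.68% of all genes. For the NTF2-deletion rescue the counts were 0 higher and 8 lower of 34, against 4.04% and 3.08%. PTGS2 gave -1.97 (SE 0.30) with the wild-type and -1.80 (SE 0.29) with the NTF2-deleted protein, ZC3H12A -1.61 (SE 0.20) and -1.53 (SE 0.21), and NFKBIZ -1.28 (SE 0.16) and -1.27 (SE 0.18). The tables are shrunk toward 0 to different degrees, and from ratios of group means with no shrinkage the wild-type differences were -2.46 for PTGS2, -1.74 for ZC3H12A and -1.31 for NFKBIZ. GADD45B, TNFAIP3, IL32 and TRAF1 were also called lower in both differences, and RELB with the NTF2-deleted protein. Between the rescues, the arsenite responses called 0 of 36 members either way, beside 0.101% of all genes higher and 0.227% lower. Here 3 members had an unadjusted p under 0.05, namely NFKBIB (0.21, SE 0.11), CSF1 (-0.37, SE 0.18) and CSF2 (-0.41, SE 0.20). The knockout libraries serve both differences against knockout, so these share their error. The wild-type rescue with arsenite included the deepest library of the experiment, with a size factor of 1.55 in its table beside 0.79 and 0.77 for the untreated rescue libraries.

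Set against untreated knockout cells, both rescues with arsenite called 24 of 36 members higher and 5 lower in the authors' deposited table. These comparisons change rescue and arsenite together, so the parts of rescue and arsenite cannot be told apart in them. Of all genes, 32.0% were higher and 24.4% lower with the wild-type protein and 30.0% and 24.3% with the NTF2-deleted protein. The well-expressed genes of these tables had medians of 0.22 and 0.19. After centring on these, 21 members were higher and 8 lower with the wild-type protein, and 18 and 7 with the NTF2-deleted protein. No centring was applied to the shares of all genes, so the centred counts have no such share beside them. TRAF1 (2.05 and 1.58), IL11 (1.91 and 1.66), NFKBIB (1.83 and 1.62), TNFAIP3 (1.53 and 1.11), NFKBIE (1.29 and 1.22) and GADD45B (1.32 and 1.00) were higher in the authors' deposited table. Of each pair the first value is for the wild-type and the second for the NTF2-deleted protein, both with arsenite. TRAF1 had 1533 and 1578 normalised reads with the wild-type and 1133 and 1112 with the NTF2-deleted protein, and IL11 had 331 and 329 against 274 and 282. NFKBIB had 1134 and 1194 against 1022 and 989, and NFKBIE 871 and 846 against 816.5 and 818. GADD45B had 533 and 520.4 against 446.5 and 396. NFKB1 had 1870 and 1920 normalised reads with the NTF2-deleted protein (1.21, SE 0.09 in the authors' deposited table). PTGS2 had 67.1 and 86.7 there (1.12, SE 0.37 in the authors' deposited table). In arsenite-treated knockout cells GADD45B had 565 and 589 normalised reads and PTGS2 165.5 and 183, above both rescues with arsenite. TRAF1, IL11, NFKBIB, TNFAIP3, NFKBIE and NFKB1 were below both rescues there, TRAF1 with 672 and 592. BCL3 (-1.62 and -1.69) stayed lower in the authors' deposited table, with 52.3 and 52.0 and with 49.0 and 48.5 normalised reads. ICAM1 had 2181 and 2223 normalised reads with the wild-type and 2099 and 2125 with the NTF2-deleted protein. Mesenchymal and bone markers were lower in 4 of 6 cases with the wild-type and 4 of 5 with the NTF2-deleted protein, COL5A1 lowest at -2.38 and -2.28, and VIM was higher (0.20 and 0.29) in the authors' deposited table. EPCAM (-1.29 and -0.75) and ITGAM (-1.18 and -1.10) were lower in both in the authors' deposited table. The part of these markers was not tested.

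RIP-seq of FLAG-G3BP1 called members higher and lower in shares near those of all genes. Of 26 members tested in RIP-seq, 10 were higher and 8 lower in the pull-down than in input in the authors' deposited table, where 37.1% of all genes were higher and 37.9% lower. The members' shares, 38.5% higher and 30.8% lower, lay near those of all genes. The medians were 0.27 for the members and 0.01 for all genes tested. None of the 6 chemokines reached the base mean limit, and ICAM1, VCAM1, CD40 and TNF had at most 1 read in each group, so ICAM1, the member that changed most in knockout cells, could not be measured here. CXCL3, a neutrophil chemokine, had 14, 9 and 12 reads in the pull-down and 3, 2 and 3 in input. CXCL8 had 5, 0 and 2 reads against 3, 1 and 7, and IL6 had none. IL32 had the highest value, with 48.6, 30.4 and 45.9 normalised reads in the pull-down and 8.33, 5.56 and 13.6 in input (2.09, SE 0.46 in the authors' deposited table). The inhibitors NFKBIE (1.34), NFKBIB (1.27) and NFKBIA (0.55) were higher in the pull-down in the authors' deposited table. The factors REL (-2.44), NFKB1 (-2.10) and NFKB2 (-0.67) were lower, while RELA (0.35) was higher, in the authors' deposited table. Among brakes, TNFAIP3 had 13.2, 24.9 and 20.4 normalised reads in the pull-down and 80.5, 55.6 and 53.3 in input (-1.65, SE 0.37 in the authors' deposited table). NFKBIZ had 28.0, 40.6 and 26.8 against 81.4, 80.6 and 82.8 (-1.32, SE 0.30), and IRAK2, a kinase of interleukin 1 signalling, 64.3, 77.5 and 117 against 49.0, 39.9 and 35.2 (1.02, SE 0.31), in the authors' deposited table. In IL32, TNFAIP3, NFKBIZ and IRAK2 the pull-down and input libraries did not overlap. Of 11 tested members with recovered reads, 4 lay wholly higher in the pull-down, 6 wholly lower and 1 overlapped. The Wald statistics of all genes had a robust spread of 3.84 in this table, and divided by it 1 member was called, NFKB1. The shares of all genes above are without this division. Of 27 upstream genes 9 were higher and 14 lower, with TAB3 at -2.03 and TRADD at 1.18 in the authors' deposited table.

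**Figure D5:**
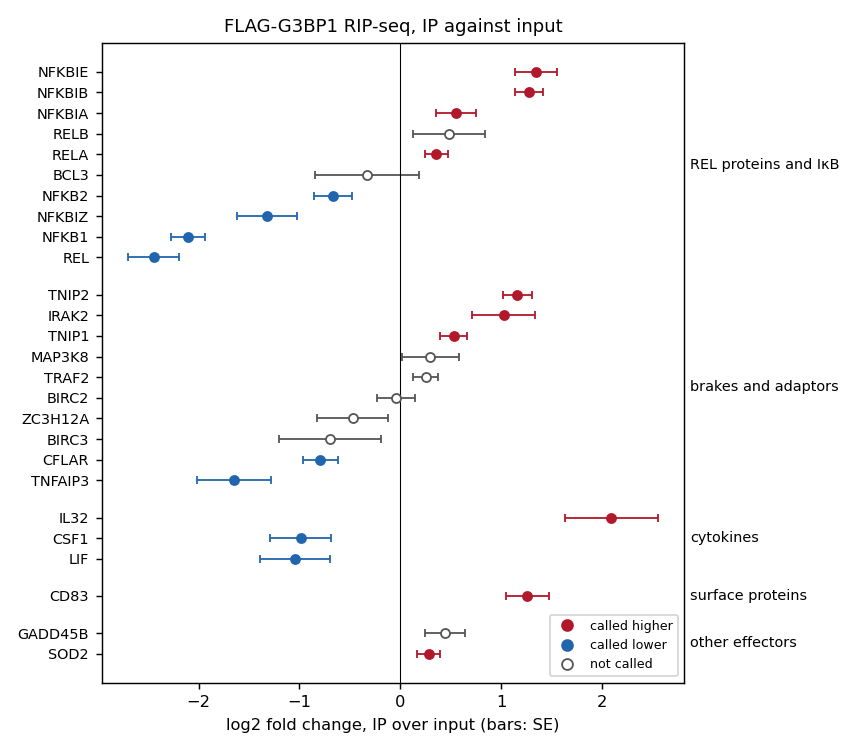
Log2 fold changes of the 26 tested members in FLAG-G3BP1 pull-down over input RNA (x axis), grouped by role (y axis), with the standard errors of the authors' deposited table as bars. Filled points passed an adjusted p of 0.05, from IL32 (2.09) at the right to REL (-2.44) at the left.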

How the data were processed

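Poly-A RNA was extracted with TRIzol and made into libraries with the NEBNext Ultra II Directional kit, per the labels' protocols. The submitters' processing notes name STAR 2.7.0f for RIP-seq and the first U2OS experiment, "STAR 1.5.3" for the second, and DESeq2 2.11.40.6. Build, annotation and counting settings are not given in the sources used here. The authors deposited 11 tables of their own comparisons, each with 61541 Ensembl genes and 4 summary lines (25.75 to 43.81% of normalised reads), which were left out. Each deposited table gives a base mean, a signal counted in reads after size-factor scaling. The deposited fold change is on the log2 scale, shrunken toward 0, the group named first over the other. The deposited standard error and Wald statistic are scores, and the deposited p-value and adjusted p-value come from that statistic.

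A gene was called at the authors' adjusted p under 0.05 with a base mean of at least 10. Reads per library were recovered here from the base means, since each is a weighted sum of whole reads. In a check, 700 of 700 low genes per U2OS table had 1 solution, and all 45 members had 1. In RIP-seq only genes of base mean under 70 were recovered. U2OS levels are normalised reads on the scale of each experiment's knockout libraries, and RIP-seq levels use that table's size factors. Differences between tables divided the difference of fold changes by the root of the summed squared standard errors, with a two-sided normal p and Benjamini-Hochberg adjustment over all genes. Tested on simulated data for the wild-type rescue minus knockout response, over 15648 genes, the step found 78% of log2 differences of 1 and 99% of 2, and 5.35% of its calls were false. The simulated fold changes were not shrunken. These rates therefore leave out false differences from unequal shrinkage and do not give the error rate of the reported calls.

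The members, gene lists and tests were chosen with earlier results of these data known. Any member may be named. Values per library are given for called members with a log2 fold change of at least 1 and a base mean of at least 50, at most 6 each way, and throughout for NFKBIA, TNFAIP3, RELA, ICAM1, CXCL8 and IL6. Per-library values of other members, of TRAF3 and of ITGAM were added after seeing the values. The other pathway and receptor genes are named by largest fold change. Symbols came from the tables' own names, and 44 of 45 equalled the RefSeq-based name table. Alternatives were no base mean limit, centring on the table median, another adjustment, unshrunken ratios and leaving out each library. Python 3.11.15, numpy 2.4.6, pandas 2.3.3, scipy 1.17.1 and matplotlib 3.10.9 were used. The other 48 libraries were not analysed here.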

Additional observations from a re-analysis of the deposited data

Results flagged for a closer look

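The difference between the arsenite responses of rescued and knockout cells passed its test for 15 member results. They are 7 of 34 members with the wild-type and 8 of 34 with the NTF2-deleted protein, beside 2.68% and 3.08% of all genes called lower. Every member called with the wild-type protein was also called with the NTF2-deleted protein. Both differences use the same knockout libraries, so these results share their error and are not separate findings. With wild-type G3BP1 minus knockout these were PTGS2 at -1.97, ZC3H12A at -1.61, NFKBIZ at -1.28, GADD45B at -0.697, TNFAIP3 at -0.623, IL32 at -0.596 and TRAF1 at -0.562 on the log2 scale. With NTF2-deleted G3BP1 minus knockout they were PTGS2 at -1.80, ZC3H12A at -1.53, NFKBIZ at -1.27, GADD45B at -0.823, TRAF1 at -0.66, TNFAIP3 at -0.656, IL32 at -0.603 and RELB at -0.522. Without shrinkage, the wild-type differences of GADD45B, TNFAIP3, IL32 and TRAF1 were -0.728, -0.665, -0.61 and -0.592, and the NTF2-deletion differences of RELB and PTGS2 were -0.529 and -2.07. In untreated cells PTGS2, ZC3H12A, GADD45B, TNFAIP3, IL32 and TRAF1 already stood higher after wild-type rescue than in knockout (log2 fold changes of 1.01, 1.03, 0.52, 1.30, 0.37 and 1.82 in the authors' deposited table), while NFKBIZ, at 0.05 (SE 0.18) in that table, was not called. The part of these starting levels in the smaller responses was not tested.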

How the results depend on the processing

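Of 44 alternative counts of called members, 43 stayed within 1.5 times the reported count, and the RIP-seq count fell from 18 to 1 (0 higher, 1 lower) with Wald statistics divided by their spread. Shares of all genes under these alternatives are not given here. Over all 87 named values, unshrunken ratios reversed 0 and moved 5 by more than 1 standard error: ICAM1 to 7.7 (knockout over wild type) and -7.17 (wild type over rescue), CXCL8 to -5.82 and 1.79, and PTGS2 under arsenite to 2.4. Leaving out each library in turn gave 353 values, of which 0 reversed and 29 moved. CXCL8 rests on 1 read in knockout cells, and its ratio ran from -4.82 to -5.92, with no finite ratio without knockout library b, which holds that read and is not among the 353 values. No paired analysis was possible because the tables carry no replicate numbers. Depth limits IL6, TNF, IL1A, CSF2 and CXCL8, which had at most 35 reads in any U2OS library.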
